A study of Arabidopsis thaliana with 10 samples.

Results

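The genes described here are 6 NAC transcription factors known for their part in leaf senescence: NAC6, better known as ORE1 (AT5G39610), NAP (AT1G69490), ATAF1 (AT1G01720), NAC016 (AT1G34180), NAC019 (AT1G52890) and JUB1 (AT2G43000, listed as NAC042). They were picked by name and locus from a table of 33028 genes, whatever their values. All 6 were among the 21475 genes with enough counts to be tested, NAC016 with 0 to 192 and JUB1 with 15 to 114 reads per library, the other 4 with at least 39.

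Leaf senescence ends the life of a leaf by an ordered breakdown of chlorophyll, protein and nucleic acids, from which nitrogen is moved to other organs. NAC factors, a large plant family named after a shared DNA-binding domain, stand high in its control. ORE1, NAP, ATAF1, NAC016 and NAC019 are known to promote senescence, ORE1 as a hub that is held back in young leaves by the microRNA miR164, and JUB1 is known to delay it. Darkness is a common way to start senescence in the laboratory.

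RNA was measured in the fifth and the sixth leaves of 4-week-old Arabidopsis thaliana plants kept at 22 °C under a day of 16 h light and 8 h night. The labels give 5 groups of 2 libraries: RanG22V D3, RanG22V D0, RanT27N D3, RanT27N D0 and Col D0. RanG22V and RanT27N plants overexpress the Ran-GTP and the Ran-GDP form of Ran, a small GTPase of nuclear transport, and Col is the untreated Col-0 wild type. D0 leaves were harvested once detached, and D3 leaves after 3 days in darkness. There is no Col D3 group. Which promoter drives the transgenes, and how many independent lines were used, is not given in the sources used here. Whether both libraries of a group stem from separate plants is not in the labels. The spread that p-values rest on is that between libraries, and it may be technical.

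The names inside the deposited count tables go against the labels for 8 of the 10 libraries, and only the Col D0 pair carries the same name in both. Inside the tables, the pair labelled RanG22V D3 is named T27N on D3, the pair labelled RanG22V D0 is named G22V on D3, the pair labelled RanT27N D3 is named T27N on D0 and the pair labelled RanT27N D0 is named G22V on D0. The labels define the groups used here, and each group name below means the pair labelled so. The same pairs are compared either way, so the folds stand under both readings and only the names change. ASN1, an asparagine synthetase gene known to rise in darkness, was at 10.8 and 42.7 CPM (counts scaled to a common library size) in RanG22V D3, 1485 and 839.7 in RanG22V D0, 0.12 and 0.336 in RanT27N D3, 1.11 and 1.11 in RanT27N D0, and 1.35 and 0.895 in Col D0. It was highest in the 2 pairs that the tables name as D3, and low in the pair labelled RanT27N D3. RBCS1A, a Rubisco gene also taken as a reading of darkness, was at 78.3 to 510 CPM in these 2 pairs and 2581 to 5356 in the others. SAG12, a senescence gene, was at 139 to 756 CPM in the same 2 pairs and at most 1.22 in the others. RAN1, a Ran gene of the plant, was at 1086 and 1263 CPM in RanG22V D3, 850.9 and 913 in RanG22V D0, 1518 and 1334 in RanT27N D3, 560.2 and 619.8 in RanT27N D0 and 436 and 256 in Col D0, and the reads cannot show whether they came from a transgene. RAN3 was at 103 to 124 CPM in the pairs that the tables name T27N and 46.4 to 57.3 in the others. RAN1 was likewise higher in the pairs named T27N than in the others, without overlap. RAN2 did not split so, with 153 and 117 CPM in RanT27N D3 but 160 and 159 in RanG22V D0. Which names are right was not tested.

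Libraries held 14187505 to 24496672 counts, of which ribosomal RNA took 8.19% to 24.54%. The 4 leaf mesophyll markers, all detected in every group, summed to 1190 to 1800 CPM in RanG22V D3 and 436 to 665 CPM in RanG22V D0, against 6640 to 8250 CPM in RanT27N D3, 6750 to 7780 CPM in RanT27N D0 and 5370 to 9080 CPM in Col D0. Singly, LHCB3 was at 13.3 to 174 CPM in the RanG22V libraries and 10.3 to 1153 in the others, and PSBO1 at 343 to 1182 and 1169 to 3438. RBCS1A and CA1 were lower in the RanG22V libraries without overlap. The 3 epidermis markers summed to 580 to 614 CPM in RanG22V D3 and 143 to 207 in RanG22V D0, against 679 to 1240 in the 6 other libraries, and the 2 phloem companion cell markers to 53.1 to 83 CPM in the RanG22V libraries, against 220 to 429 in the others. Of these 2, SUC2 was low in both RanG22V pairs. AHA3 was at 49.5 and 51.9 CPM in RanG22V D3, within the 48.2 to 63.6 CPM of the 6 other libraries, and lower in RanG22V D0 alone. Guard cell markers summed to 39.4 to 60.1 CPM in all libraries, though KAT1 was at 24.5 and 31 CPM in RanG22V D3, against 5.41 to 19.5 in the others. The root, xylem, flower and seed markers summed to at most 21.3, 5.05, 4.61 and 0.416 CPM, with the root marker RHD6 and the seed marker AT2S3 at 0 throughout. The mesophyll, epidermis and phloem sums thus moved with the RanG22V labels, as NAC6 and NAP did below, but not every single marker did. The pairs labelled RanG22V are also those that the count tables name as D3. The part of marker levels in the NAC6 and NAP results was not tested. In RNA of a whole leaf, fewer cells of a type and less RNA per cell cannot be told apart.

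The miR164 family and its site in NAC6 are shown because this pairing is the best known control of the ORE1 transcript. Mature sequences come from RefSeq (assembly TAIR10.1) with the seed, bases 2 to 8, in capitals, and the 5′ products of MIR164a, b and c share it.
miR164a: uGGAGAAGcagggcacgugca
miR164b-5p: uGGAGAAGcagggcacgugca
miR164c-5p: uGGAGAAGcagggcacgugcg

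Below is the stretch of each transcript closest to a full complement of miR164a, as DNA letters 5′ to 3′, with bases that do not pair as A with T or G with C in capitals.
NAC6: CTcacgtgAcctgcttctccG
NAC1: AgcacgtAccctgcttctcca
NAC080: tTTacgtgccctgcttctcca
NAC100: tCTacgtgccctgcttctcca

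The NAC6 site has 4 mismatches over 21 bases and lies on the minus strand at chr5:15858797-15858817 (TAIR10.1), in the coding part of exon 3 of 3. NAC1, NAC080 and NAC100, other NAC genes known as miR164 targets, have 2 mismatches each. A site with at most 4 mismatches is found in 13 of 31342 genes with a transcript (0.0415%). The closest stretches of NAP, ATAF1, NAC016, NAC019 and JUB1 have 8 or 9 mismatches.

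Stretches of 250 bases before the gene start are shown for NAC6 and NAP, which moved together, and for NAC019. The motifs searched were CACGTG (the G-box), ACGTG (the core of many abscisic acid response elements) and CATGTG (the core bound by NAC019 and its relatives), on both strands. They were searched from 250 bases before to 50 bases after the start, and matches are in capitals.
NAC6, chr5:15859912-15860161, minus strand: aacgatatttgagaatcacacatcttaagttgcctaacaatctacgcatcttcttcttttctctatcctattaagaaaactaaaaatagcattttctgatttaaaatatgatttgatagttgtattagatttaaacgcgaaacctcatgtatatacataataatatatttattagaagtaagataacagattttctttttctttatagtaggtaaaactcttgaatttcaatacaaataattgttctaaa
NAP, chr1:26121830-26122079, plus strand: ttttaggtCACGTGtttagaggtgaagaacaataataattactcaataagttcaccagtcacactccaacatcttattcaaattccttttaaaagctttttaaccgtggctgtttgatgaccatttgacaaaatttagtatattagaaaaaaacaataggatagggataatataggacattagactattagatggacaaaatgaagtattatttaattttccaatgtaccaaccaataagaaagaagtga
NAC019, chr1:19698483-19698732, minus strand: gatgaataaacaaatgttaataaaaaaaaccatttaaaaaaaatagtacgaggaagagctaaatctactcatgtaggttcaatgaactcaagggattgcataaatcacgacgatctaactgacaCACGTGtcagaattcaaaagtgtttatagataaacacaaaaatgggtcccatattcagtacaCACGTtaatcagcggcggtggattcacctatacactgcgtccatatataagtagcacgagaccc

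NAP has a CACGTG whose first base is at -242 from the gene start, and NAC019 has one at -126 and a separate ACGTG at -64. Every CACGTG also holds ACGTG, once on each strand. NAC6, ATAF1, NAC016 and JUB1 have none of the 3 motifs in this window. Of 27443 windows of the same length, 7.68% hold CACGTG, 26.7% ACGTG and 12.9% CATGTG. A match is a description of letters and not a bound site.

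NAC6 stood high in both RanG22V pairs. Its levels were 160.4 and 197.5 CPM in RanG22V D3, 478 and 506 in RanG22V D0, 2.35 and 21.5 in RanT27N D3, 7.3 and 43.6 in RanT27N D0 and 3.09 and 19.8 in Col D0. The 4 RanG22V libraries lie above the 6 others without overlap, and the D0 pair above the D3 pair. The other 3 groups overlap each other, and in each of them replicate 2 is far above replicate 1.

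NAP, a NAC factor that promotes chlorophyll loss and abscisic acid synthesis, had the same profile. It was at 337 and 353 CPM in RanG22V D3, 749 and 853 in RanG22V D0, 4.03 and 35.3 in RanT27N D3, 11.1 and 66.2 in RanT27N D0 and 4.59 and 35.5 in Col D0. The order of its groups is the same as for NAC6 except that RanT27N D3 and Col D0, whose means were 19.65 ± 22.1 and 20.1 ± 21.9 CPM (SD, n = 2), change places. The NAP value divided by the NAC6 value of the same library was between 1.48 and 2.1 in all 10 libraries, with a median of 1.66. Levels are not corrected for gene length, so only the steadiness of this ratio can be read, not its size.

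**Figure D1:**
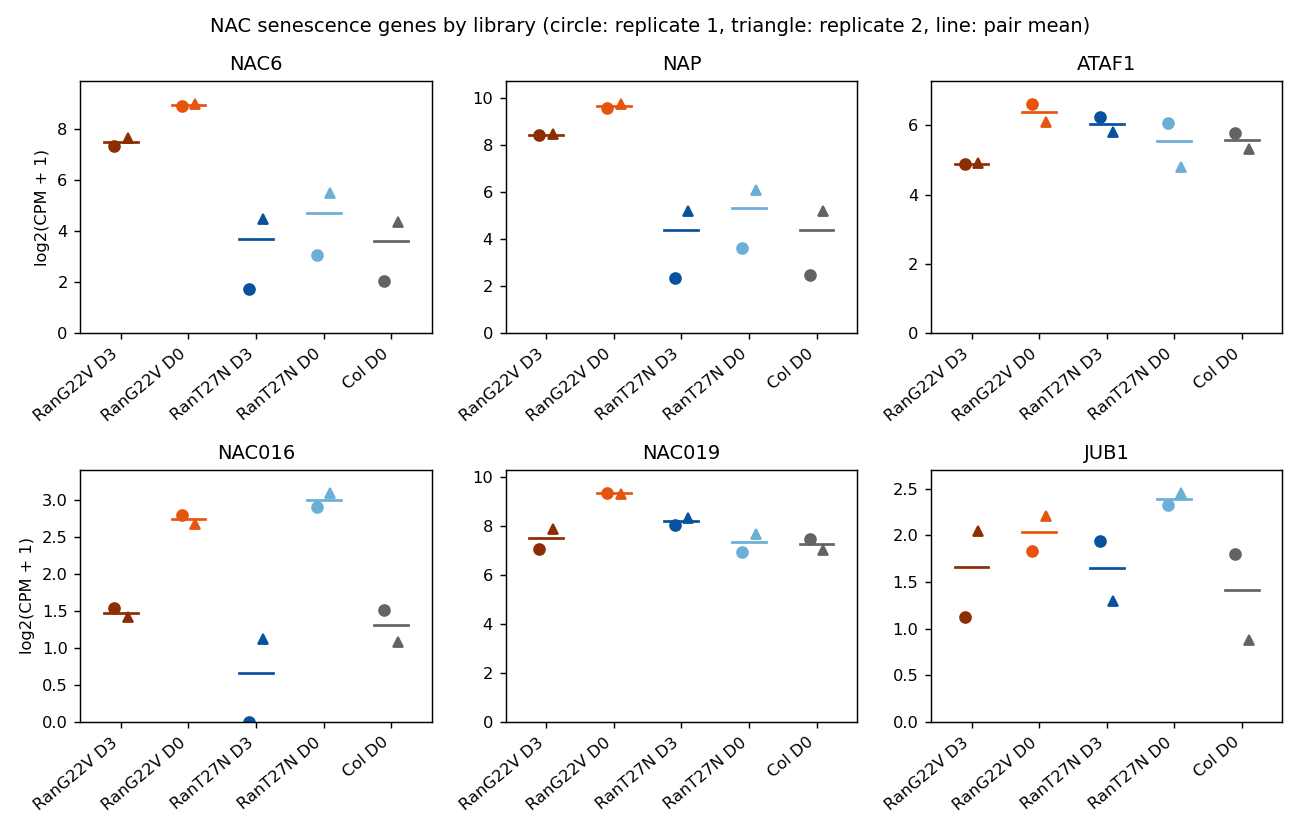
Level of each NAC gene in the 10 libraries, as log2(CPM + 1), by labelled group; circles are replicate 1, triangles replicate 2 and lines the mean of the pair. NAC6 and NAP are high in both RanG22V pairs, while NAC019 is high in RanG22V D0 alone, with 651 and 632 CPM.

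NAC019, a stress-induced NAC factor of jasmonate and abscisic acid signalling, was high in RanG22V D0 alone. It had 134 and 230.4 CPM in RanG22V D3, 651 and 632 in RanG22V D0, 259 and 317.5 in RanT27N D3, 119.8 and 200 in RanT27N D0 and 177 and 129 in Col D0. Its 2 RanG22V D0 libraries are above the other 8, the RanT27N D3 pair comes next, and the remaining groups overlap.

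ATAF1 is known to switch on ORE1 and to hold back GLK1. It was at 28.5 and 29 CPM in RanG22V D3, 96.8 and 67.2 in RanG22V D0, 74.7 and 55.1 in RanT27N D3, 65.5 and 26.6 in RanT27N D0 and 53.3 and 39 in Col D0. The RanG22V D3 pair was lower than every other library except replicate 2 of RanT27N D0. Its gene is overlapped on the other strand by AT1G04043 over 344 bases and by AT1G01725 over 28, and the strand setting of the counting is not given in the sources used here, so their reads cannot be told apart from its own. The same holds for JUB1 and AT2G42990, which overlap over 107 bases.

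NAC016, which is known to act ahead of NAP, and JUB1 had few counts. NAC016 had 1.91 and 1.67 CPM in RanG22V D3, 5.93 and 5.41 in RanG22V D0, 0 and 1.18 in RanT27N D3, 6.47 and 7.58 in RanT27N D0 and 1.85 and 1.12 in Col D0. Its 2 D0 pairs from the Ran lines are above all other libraries and do not overlap each other. JUB1 had 1.19 and 3.14 CPM in RanG22V D3, 2.56 and 3.64 in RanG22V D0, 2.83 and 1.46 in RanT27N D3, 4.02 and 4.5 in RanT27N D0 and 2.49 and 0.839 in Col D0, and the RanT27N D0 pair alone stands clear of the rest.

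The groups were taken in order of their mean, and neighbours were compared by edgeR's quasi-likelihood test, called at an adjusted p below 0.05. For NAC6 and NAP the widest step is from RanG22V D3 to RanT27N D0, with a 7.03-fold and 8.92-fold difference of means and adjusted p of 0.159 and 0.134. For NAC019 it is from RanG22V D0 to RanT27N D3, 2.22-fold with adjusted p = 0.0634. No neighbouring pair of groups was called for any of the 6 genes.

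RanG22V D0 against Col D0 asks, by the labels, what the Ran-GTP form does before darkness, and by the names inside the tables it sets the darkened G22V pair against the wild type. NAC6, NAP and NAC019 were called higher, 3 of 6, in a comparison where 23.2% of all tested genes were called and 11.1% called higher. NAC6 averaged 492 ± 19.9 CPM in RanG22V D0 and 11.4 ± 11.8 CPM in Col D0 (SD, n = 2 each), a log2 fold change of 5.43 ± 1.29 (SE, edgeR adjusted p = 0.0151), or 43.1-fold. NAP was 40-fold higher (log2 5.32 ± 1.32, edgeR adjusted p = 0.0183) and NAC019 4.19-fold higher (2.07 ± 0.41, 0.00673). ATAF1, NAC016 and JUB1 had log2 fold changes of 0.83, 1.93 and 0.89 with adjusted p of 0.192, 0.186 and 0.406. Without replicate 1 of Col D0 the NAC6 and NAP calls were lost at edgeR adjusted p of 0.0527 and 0.0575, and without replicate 2 of RanG22V D0 the NAP call was lost at 0.051. The sizes rest on the Col D0 library used: the log2 fold change was 4.62 for NAC6 and 4.48 for NAP without replicate 1 of Col D0, and 7.23 and 7.37 without replicate 2. NAC016 was called without either library of RanT27N D3, at adjusted p of 0.0275 and 0.029.

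RanG22V D0 against RanT27N D0 compares the lines on day 0 by the labels, and by the tables' names the G22V line after darkness with the same line before it. The same 3 genes were called higher, where 17.6% of tested genes were called and 8.25% called higher. The log2 fold changes were 4.27 ± 1.21 for NAC6, 4.37 ± 1.26 for NAP and 2 ± 0.41 for NAC019, with edgeR adjusted p of 0.0387, 0.0405 and 0.00962. The NAC6 and NAP calls are close to the threshold. They were lost without replicate 1 of RanT27N D0 (adjusted p = 0.157 and 0.164), and also without either library of RanG22V D0 or of RanG22V D3. Their log2 fold changes were 3.47 and 3.57 without replicate 1 of RanT27N D0, and 6.07 and 6.17 without replicate 2. NAC019 lost its call only without replicate 1 of RanT27N D0, at 0.0823.

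RanG22V D3 against RanT27N D3 compares the lines on day 3 by the labels, and by the tables' names the T27N line after and before darkness. None of the 6 genes was called by edgeR, where 10.8% of tested genes were, although NAC6 was 15-fold and NAP 17.5-fold higher (log2 3.91 ± 1.2 and 4.13 ± 1.24, adjusted p = 0.0681 and 0.0647). The unadjusted p of the edgeR fit was below 0.05 for 3 genes, NAC6, NAP and ATAF1, and for 5951 of all 21475 tested. DESeq2 called NAC6 and NAP, with adjusted p of 0.0171 and 0.0123. With the replicate number as a block, both were called at an edgeR adjusted p of 0.0106. These settings called more genes of the whole table, 4146 by DESeq2 and 2794 with the block, against 2324 in the main fit. With any single library of Col D0 or RanT27N D0 left out edgeR called both, and with any other single library left out it called neither. Their log2 fold changes were 3.09 and 3.32 without replicate 1 of RanT27N D3, and 6.23 and 6.4 without replicate 2. RanG22V D3 against Col D0 gave nearly the same sizes, with log2 fold changes of 3.97 for NAC6 and 4.1 for NAP and edgeR adjusted p of 0.0644 and 0.0645, where 11.2% of genes were called, and DESeq2 called both, at 0.014 and 0.0122. There edgeR called both with replicate 2 of Col D0 or any single RanT27N library left out, and neither with any other single library left out. The log2 fold changes of NAC6 and NAP were 3.22 and 3.32 without replicate 1 of Col D0, and 5.83 and 6.21 without replicate 2.

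With both days joined, the mean of the RanG22V groups against the mean of the RanT27N groups called NAC6 and NAP whichever library was left out. NAC6 was 17-fold higher (log2 4.09 ± 0.85, edgeR adjusted p = 0.00671) and NAP 19.1-fold higher (4.25 ± 0.88, 0.00665), where 27.6% of genes were called and 11.9% called higher. With each of the 10 libraries left out in turn, the log2 fold change stayed between 3.66 and 5.24 for NAC6 and between 3.83 and 5.37 for NAP, with a highest adjusted p of 0.0189 for each. By the tables' names this comparison is of the darkened against the undarkened pairs of both lines. The others had log2 fold changes of -0.17 for ATAF1, 0.63 for NAC016, 0.67 for NAC019 and -0.22 for JUB1, and none of these was called.

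RanG22V D3 against RanG22V D0 asks, by the labels, how darkness acted in the Ran-GTP line, and by the tables' names it compares the T27N and the G22V line after darkness. NAC019 was called lower, 1 of 6, where 3.94% of genes were called and 2.77% called lower. It averaged 182 ± 68.4 CPM in RanG22V D3 and 641 ± 14 CPM in RanG22V D0 (SD, n = 2 each), a log2 fold change of -1.82 ± 0.41 (edgeR adjusted p = 0.0415). The call was lost with any single library of RanG22V D3, RanG22V D0 or RanT27N D3 left out, at adjusted p of 0.0656 to 0.281. All 6 genes had negative log2 fold changes, of -1.46 for NAC6, -1.22 for NAP, -1.51 for ATAF1, -1.66 for NAC016 and -0.51 for JUB1, and the 5 that were not called had adjusted p of 0.0852 to 0.73. The RanG22V D3 and RanG22V D0 libraries do not overlap for NAC6, NAP, ATAF1, NAC016 and NAC019, and they do for JUB1. How many of all tested genes show no overlap between these libraries was not counted. Fitted to these 4 libraries alone, 5 of 6 genes were called, all but JUB1. In that fit 3607 genes were called, against 846 in the fit of all 10 libraries, and the cause was not tested.

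In RanT27N D3 against RanT27N D0 (T27N against G22V before darkness, by the tables' names) no NAC gene of the 6 was called by edgeR, where 0.345% of genes were. NAC016 came closest, with 0.589 ± 0.833 CPM in RanT27N D3 and 7.02 ± 0.783 CPM in RanT27N D0 (SD, n = 2 each), a log2 fold change of -3.55 ± 1.06 and edgeR adjusted p = 0.293. Replicate 1 of RanT27N D3 had 0 NAC016 reads, and without it the log2 fold change was -2.57. The unadjusted edgeR p of NAC016, 0.00794, was the only one of the 6 below 0.05, where 2030 of the 21475 tested genes were. DESeq2 called NAC016, at an adjusted p of 0.0156, among 563 genes, against 74 called by edgeR. NAC6 and NAP had log2 fold changes of -1.09 ± 1.08 and -0.98 ± 1.11. RanT27N D0 against Col D0 gave no call among the 6 by edgeR or DESeq2, 1 unadjusted p below 0.05 (NAC016, 0.0471), and 0.247% of genes called. Of the 21475 tested genes, 1864 had an unadjusted edgeR p below 0.05 in that comparison. RanT27N D3 against Col D0 gave no call among the 6 by edgeR or DESeq2. By edgeR 0 of 21475 genes were called there, with 867 at an unadjusted p below 0.05, NAC019 among them (log2 0.92 ± 0.4).

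**Figure D2:**
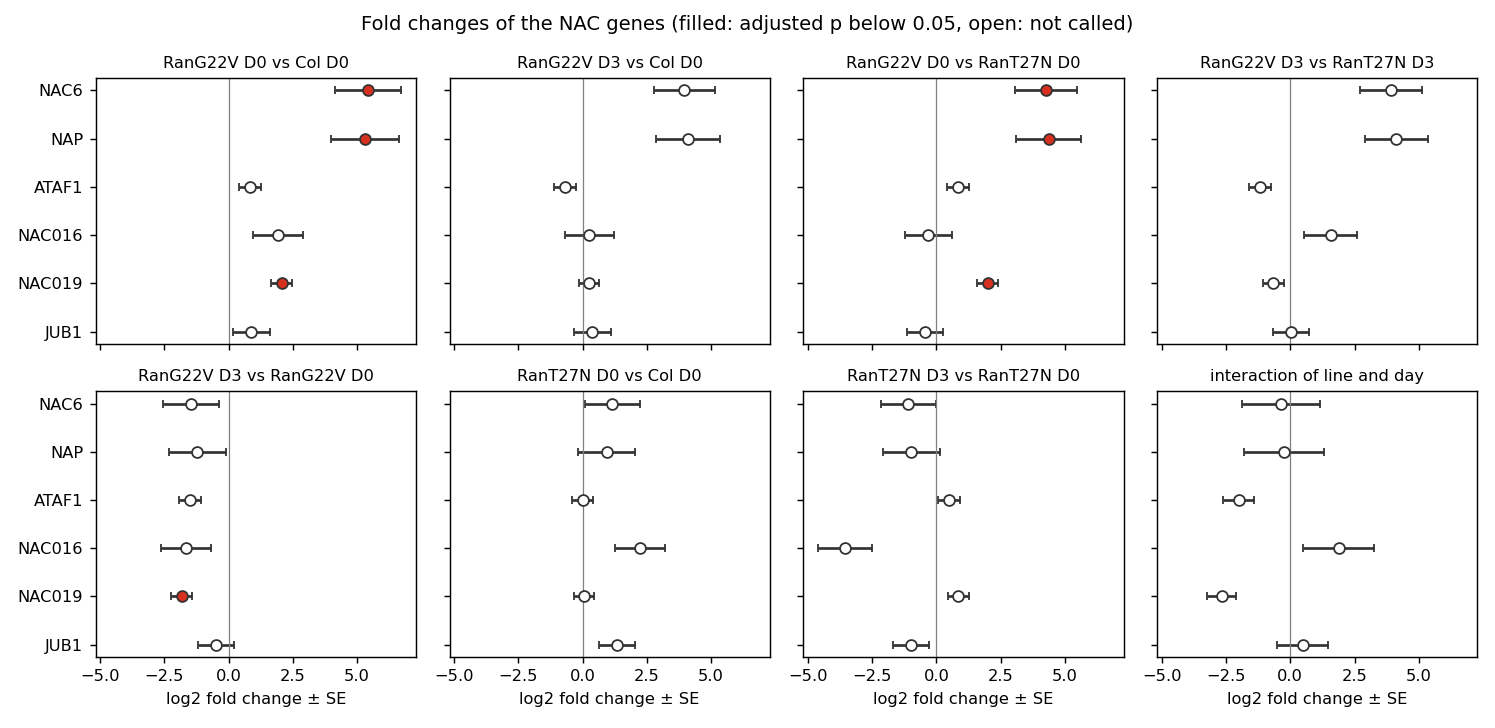
Log2 fold changes with their SE for the 6 genes in 7 pairs of groups and in the interaction of line and day; filled points have an edgeR adjusted p below 0.05. NAC6 and NAP carry SE of 1.08 to 1.55, against 0.39 to 0.6 for ATAF1 and NAC019.

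The interaction of line and day, the day difference in the RanG22V pairs minus that in the RanT27N pairs, asks whether the lines differ in their change. No gene of the 6 was called by edgeR, where 0.21% of genes were. An unadjusted p below 0.05 was found for 2 of the 6, and for 2714 of all 21475 tested. NAC019 had a log2 difference of -2.67 ± 0.57 (unadjusted p = 0.00095, edgeR adjusted p = 0.107), with -1.82 between the RanG22V pairs and 0.85 between the RanT27N pairs. ATAF1 had -2.01 ± 0.6 (unadjusted p = 0.00817, adjusted p = 0.23), with -1.51 and 0.49. DESeq2 called NAC019, at an adjusted p of 0.00022, among 719 genes, against 45 called by edgeR. For NAC6 and NAP the interaction was -0.36 ± 1.51 and -0.24 ± 1.55, with SE several times the estimate.

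ORE1 acts on nucleases, chlorophyll breakdown and ethylene synthesis, and the 10 listed targets and partners were mostly high in RanG22V D0. Of the 10, 7 were called higher in RanG22V D0 against Col D0, where 11.1% of all genes were called higher. The median log2 fold change of the 10 was 3.84, against 0 over all genes tested. Against RanT27N D0, 8 were called higher and 1 lower (median 3.55, all genes -0.07), where 8.25% of all genes were called higher. In RanG22V D3 against RanG22V D0, 5 were called lower and 1 higher (median -2.45, all genes -0.02), where 2.77% of all genes were called lower. With single libraries of these pairs left out this count of 6 was 1 or 0 without replicate 1 or 2 of RanG22V D3, and 2 or 3 without replicate 1 or 2 of RanG22V D0. Across the lists and members, no called log2 fold change turned its sign with any library left out. Of the 29 calls in RanG22V D0 against Col D0, 17 held whichever of the 10 libraries was left out, against 2 of 11 in RanG22V D3 against RanT27N D3 and 0 of 12 in RanG22V D3 against RanG22V D0. In RanG22V D3 against RanG22V D0 the calls of SWEET15, NYE1, GLK1, AAO3 and UGT74F2, given below, were lost with any one of the 4 libraries compared left out, that of BFN1 without either RanG22V D3 library and that of ACS2 without replicate 2 of RanG22V D3 (adjusted p = 0.0513).

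BFN1, a nuclease gene that ORE1 binds directly, was at 2.64 and 2.14 CPM in RanG22V D3, 268.9 and 201.7 in RanG22V D0, 1.38 and 0.336 in RanT27N D3, 1.02 and 0.197 in RanT27N D0 and 0.299 and 0.559 in Col D0. It was high in RanG22V D0 alone, while NAC6 in RanG22V D3 was still at 160.4 and 197.5 CPM. The log2 fold change of RanG22V D3 against RanG22V D0 was -6.62 ± 0.78 (edgeR adjusted p = 0.00437), 98.5-fold lower, and BFN1 was also called in the interaction, at -7.14 ± 1.04 (adjusted p = 0.0341). That interaction call was lost in 7 of 10 cases with a library left out, namely with any RanG22V or RanT27N library left out except replicate 1 of RanT27N D0, at up to 0.186. SWEET15, a sugar transporter gene also known as SAG29, followed the same course with 3.37 and 1.09 CPM in RanG22V D3 and 786 and 973 in RanG22V D0, against 0 to 2.09 in the 6 other libraries. Its log2 fold change between the RanG22V pairs was -8.64 ± 1.55 (edgeR adjusted p = 0.0201).

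ACS2, an ethylene synthesis gene, was at 7.39 and 4.19 CPM in RanG22V D3, 130 and 72.9 in RanG22V D0 and 2.46 to 8.27 in the 6 other libraries. Its log2 fold change of RanG22V D3 against RanG22V D0 was -4.14 ± 0.45 (edgeR adjusted p = 0.00383), and it too was high in RanG22V D0 alone. RNS3, a ribonuclease gene, had 0.198 and 0 CPM in RanG22V D3 and 22.3 and 5.94 in RanG22V D0, against 0.316 to 2.65 elsewhere.

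The 4 listed chlorophyll breakdown genes, NYE1, NYC1, NOL and PAO, were all highest in the RanG22V D0 pair. NYE1, which encodes the magnesium dechelatase, was at 204 and 211 CPM in RanG22V D3, 781 and 854 in RanG22V D0, 30 and 37.5 in RanT27N D3, 51.6 and 97.2 in RanT27N D0 and 41.2 and 37.1 in Col D0. It was the single gene of the 10 called in RanG22V D3 against RanT27N D3 (log2 2.62 ± 0.38, edgeR adjusted p = 0.00489), a call kept with each library left out, and it was lower in RanG22V D3 than in RanG22V D0 (-1.98 ± 0.37, 0.023). Of all tested genes, 10.8% were called in RanG22V D3 against RanT27N D3. NYC1, a chlorophyll b reductase gene, had 178 and 297 CPM in RanG22V D3, 1987 and 1617 in RanG22V D0, and 35.8 to 199 in the other 6 libraries, which overlap the RanG22V D3 pair. NOL, another chlorophyll b reductase gene, had 4.75 and 6.04 CPM in RanG22V D3, 10.13 and 13.3 in RanG22V D0 and 0.508 to 5.5 in the other 6. PAO, the pheophorbide a oxygenase gene, was 47.6 and 87.5 CPM in RanG22V D3 and 123 and 136 in RanG22V D0, and 16.6 to 46.6 elsewhere. GLK1 and GLK2 encode factors that maintain chloroplasts and that ORE1 protein is known to bind. GLK1 was at 62.4 and 62.3 CPM in RanG22V D3 and 23.2 and 25.9 in RanG22V D0, the highest and the lowest pairs, with a log2 fold change of 1.34 ± 0.26 (edgeR adjusted p = 0.0277).

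**Figure D3:**
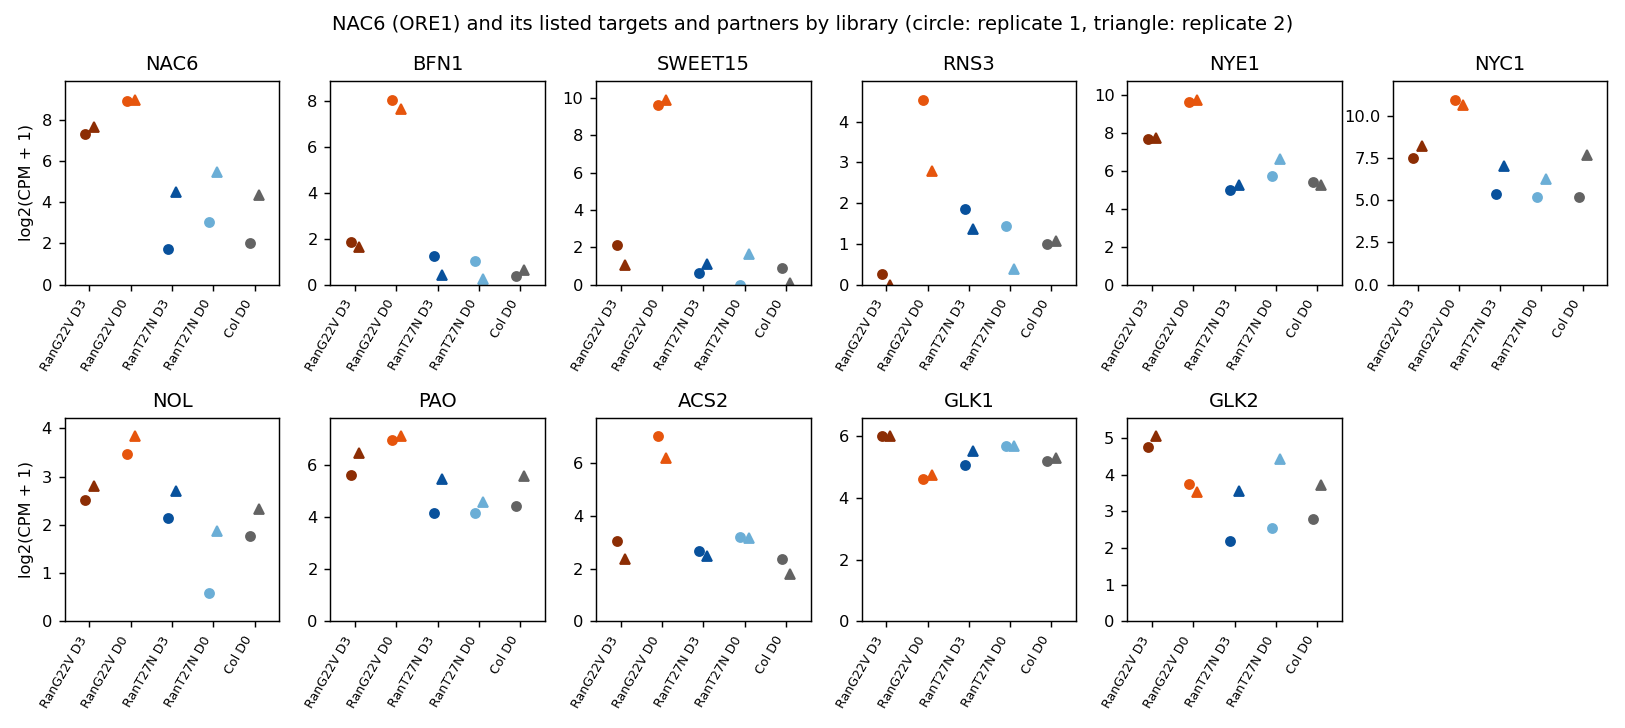
NAC6 and its 10 listed targets and partners in the 10 libraries, as log2(CPM + 1), by labelled group. BFN1, SWEET15, RNS3 and ACS2 are high in RanG22V D0 alone, whereas NAC6 and NYE1 are raised in both RanG22V pairs.

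Of the 3 listed NAP targets, 2 could be tested, and both were called higher in RanG22V D0 against Col D0, with or without any single library (median log2 fold change 4.25, all genes 0). In that comparison 11.1% of all tested genes were called higher. SAG113, a protein phosphatase gene, was at 121 and 236 CPM in RanG22V D3, 349 and 352 in RanG22V D0, 49.6 and 13.9 in RanT27N D3, 9.98 and 42.3 in RanT27N D0 and 14.9 and 4.87 in Col D0. Its RanG22V libraries lie above the rest, as those of NAP do. AAO3, which encodes the oxidase of the last step of abscisic acid synthesis, had 13.5 and 19.2 CPM in RanG22V D3, 52.8 and 56 in RanG22V D0, 14.2 and 15.3 in RanT27N D3, 6.98 and 9.67 in RanT27N D0 and 6.19 and 4.48 in Col D0. It was 10.2-fold higher in RanG22V D0 than in Col D0 (log2 3.35 ± 0.34, edgeR adjusted p = 0.000377), and lower in RanG22V D3 than in RanG22V D0 (-1.73 ± 0.32, 0.0211). CKX3, a cytokinin oxidase gene, had at most 1.29 CPM.

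Among the 5 listed ATAF1 targets, 3 were called higher in RanG22V D0 against Col D0 (median 2.94, all genes 0), of which NAC6 itself is 1, where 11.1% of all genes were called higher. Without replicate 1 of Col D0, 1 of them was called, TRE1. TRE1, a trehalase gene, was at 22 and 10.7 CPM in RanG22V D3, 104 and 71.2 in RanG22V D0 and 3.64 to 10.5 in the other 6 libraries, with log2 4.23 ± 0.48 against Col D0 (edgeR adjusted p = 0.000594). ABCG40, an abscisic acid importer gene, was 15.2 and 15.7 CPM in RanG22V D0 and 1.3 and 2.74 in Col D0, but also 10.9 and 15.1 in RanT27N D0. NCED3, a gene of abscisic acid synthesis, went the other way in RanG22V D3 against RanT27N D3, with 5.81 and 7.9 CPM against 136 and 70.4 CPM (log2 -3.91 ± 0.72, edgeR adjusted p = 0.0113), a call lost without either RanG22V D3 library.

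Of the 6 listed NAC019 targets, 2 were called higher and 1 lower in RanG22V D0 against Col D0 (median -1, all genes 0), where 23.2% of all genes were called. Without either RanG22V D0 library 1 of these was called, UGT74F2. UGT74F2, a salicylic acid glucosyltransferase gene, was at 36.8 and 25.3 CPM in RanG22V D3, 387 and 337 in RanG22V D0 and 4.9 to 30.9 in the other 6 libraries. Like NAC019 it was lower in RanG22V D3 than in RanG22V D0 (log2 -3.54 ± 0.7, edgeR adjusted p = 0.0278). ERD1, a chloroplast protease gene, was 408 and 389 CPM in RanG22V D0, against 189 and 130.5 CPM in Col D0. VSP2, a jasmonate-responsive storage protein gene, was at 1.83 and 0.718 CPM in RanG22V D0 and 116 and 21 CPM in Col D0 (log2 -5.74 ± 1.46, edgeR adjusted p = 0.0204), and replicate 1 of Col D0 left out also ends this call. Of the 4 tested JUB1 targets, GAI, a DELLA repressor gene of gibberellin signalling, was called higher in RanG22V D3 against RanT27N D3 (log2 1.36 ± 0.32, edgeR adjusted p = 0.0294), where 10.8% of all genes were called. The call was lost in 5 of 10 cases with a library left out, those of RanG22V D3, of RanG22V D0 and replicate 2 of RanT27N D3.

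Further NAC genes named in work on senescence and stress were read as a list of 15, of which 13 were tested, since ORS1 and NAC055 fall under a name that several loci share and have no value here. In RanG22V D0 against Col D0, 5 were called higher (median 0.81, all genes 0), namely NAC087, NAC047, NAC075, VNI2 and NAC046, and each kept its call with any library left out. In that comparison 11.1% of all tested genes were called higher. NAC087 was at 11.9 and 20.1 CPM in RanG22V D3, 99.8 and 88.7 in RanG22V D0, 1.32 and 1.35 in RanT27N D3, 12.8 and 12 in RanT27N D0 and 1.75 and 1.46 in Col D0. It was the only gene of any list here called in RanT27N D3 against RanT27N D0 (log2 -3.21 ± 0.34, edgeR adjusted p = 0.0176) and in RanT27N D0 against Col D0 (2.94 ± 0.34, 0.0129). The call of RanT27N D3 against RanT27N D0 was lost without either RanT27N D3 library (adjusted p up to 0.191), and that against Col D0 without either Col D0 library (up to 0.103). NAC047 was high in both RanG22V pairs, with 50.8 and 56.6 CPM in RanG22V D3 and 139 and 150.4 in RanG22V D0, against 0.798 to 14.3 in the others. VNI2, known to extend leaf life, was 73.6 and 101 CPM in RanG22V D3, 221 and 187 in RanG22V D0 and 19.9 to 57.1 elsewhere. ATAF2 was lower in RanG22V D3 than in RanT27N D3, with 51.4 and 37 against 124.7 and 394 CPM (log2 -2.55 ± 0.59, edgeR adjusted p = 0.0267), a call lost without either RanG22V D3 library or replicate 2 of RanT27N D3.

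Beside NAC6, 3 of the listed miR164 target genes could be tested. NAC1, a gene of auxin signalling in roots, was at 39.3 and 65.5 CPM in RanG22V D3, 83.3 and 125 in RanG22V D0, 4.57 and 15.3 in RanT27N D3, 10.4 and 35.2 in RanT27N D0 and 6.69 and 15.7 in Col D0. Its RanG22V libraries are all above the rest. NAC100 was at 9.37 and 7.56 CPM in RanG22V D3, 17.8 and 21.4 in RanG22V D0 and 0.0998 to 2.57 in the other 6, and was called higher in RanG22V D3 against RanT27N D3 (log2 4.06 ± 0.97, edgeR adjusted p = 0.0299), a call lost in 5 of 10 cases with a library left out, those of RanG22V D3, of RanG22V D0 and replicate 2 of RanT27N D3. NAC080 reached 4.43 and 4.88 CPM in RanG22V D0 and at most 0.904 in the 8 other libraries. In RanG22V D0 against Col D0, 3 of these 4 were called higher, NAC6, NAC1 and NAC100 (median 4.32, all genes 0), and without replicate 1 of Col D0 NAC100 alone. Of all tested genes, 11.1% were called higher in RanG22V D0 against Col D0. CUC1 and CUC2, which shape leaf margins and boundaries, had at most 0.32 CPM. The rows of the 3 MIR164 genes held at most 0.0561 CPM, and mature microRNA was not measured.

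Upstream of these genes, 18 of 21 listed regulators were tested, of which 2 were called higher and 1 lower in RanG22V D0 against Col D0 (median 0.18, all genes 0). These 3 of 18 compare with 23.2% of all genes called, and the count was 1 without replicate 1 and 0 without replicate 2 of RanG22V D0. EIN3, an ethylene factor that switches on ORE1 and NAP, was at 218 and 195 CPM in RanG22V D3, 338.5 and 293 in RanG22V D0, 119.7 and 152 in RanT27N D3, 156 and 146 in RanT27N D0 and 162 and 126.5 in Col D0. Its log2 fold change of RanG22V D0 against Col D0 was 1.13 ± 0.3 (edgeR adjusted p = 0.0255), a call lost without either RanG22V D0 library or replicate 2 of Col D0, and its RanG22V libraries are above all others. ABF3, a factor of abscisic acid signalling, was 41.9 and 87.2 CPM in RanG22V D3, 62 and 60.9 in RanG22V D0 and 11.2 to 28.6 elsewhere. MYC2, a jasmonate factor known to switch on NAC019, was called lower (log2 -3.18 ± 0.7, edgeR adjusted p = 0.011, and 0.0857 without replicate 2 of RanG22V D0), with 164 and 167 CPM in RanG22V D3 and 162.5 and 69.6 in RanG22V D0, against 263 to 1542 in the other 6 libraries. In RanG22V D3 against RanT27N D3, the phytochrome genes PHYA and PHYB were called higher, with log2 fold changes of 1.28 ± 0.28 and 1.58 ± 0.36 (edgeR adjusted p = 0.022 and 0.0238), and both calls were lost with any one of the 4 libraries compared left out.

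ORE1 protein is known to be marked for breakdown by the ubiquitin enzymes NLA and PHO2 and to be spared by UBP12 and UBP13, whose levels cannot be read as protein here. NLA was at 21.3 and 23.6 CPM in RanG22V D3, 72.7 and 56.4 in RanG22V D0, 4.57 and 12.3 in RanT27N D3, 4.76 and 8.6 in RanT27N D0 and 5.59 and 9.79 in Col D0. It was called higher in RanG22V D0 against Col D0 (log2 3.07 ± 0.52, edgeR adjusted p = 0.00337) with or without any single library, and its RanG22V libraries do not overlap the others. PHO2 was called lower in the same comparison, with 67.8 and 79.9 CPM in RanG22V D0 and 150.5 and 134 CPM in Col D0 (-0.95 ± 0.28, 0.0379), a call lost in 5 of 10 cases with a library left out, all RanG22V libraries and replicate 1 of Col D0. UBP12 and UBP13 had log2 fold changes of 0.84 and 0.56 there, and neither was called (adjusted p = 0.0516 and 0.156).

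Across the 10 libraries, Pearson's r of log2 CPM with every other tested gene was used to name the 4 genes most alike to each member, as a description, since the libraries share groups and replicate gaps. NAP led the list of NAC6 at r = 0.9988 over 21474 genes. Next came AT1G06060 (0.9925), ATG8B, a gene of autophagy (0.9865), and BLH3, a homeodomain factor gene (0.9863). The list of NAP held NAC6, AT1G06060, AT5G25340 and EBF2, the last of which encodes an F-box protein that removes EIN3. AT5G25340 and EBF2 overlap in the RefSeq annotation, and at 11.9 to 158 and 11.6 to 158 CPM they may share reads. For NAC019 the most alike genes were GCR1 (0.9629), TPR7 (0.9611), AT4G33467 (0.9579) and AT5G63960 (0.9496). For ATAF1 they were AT3G18300, AT5G45630, AT3G18295 and AT2G32150, at r of 0.9373 to 0.9631, for NAC016 AT3G58380, OBF5, SAUR9 and AT3G17980, at 0.9279 to 0.9743, and for JUB1 AT1G17330, AT3G50590, AT4G32140 and AT3G26670, at 0.9319 to 0.9443. Among the members themselves, NAC6 had r of 0.56 with NAC019, 0.54 with NAC016, -0.12 with ATAF1 and 0.03 with JUB1.

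**Figure D4:**
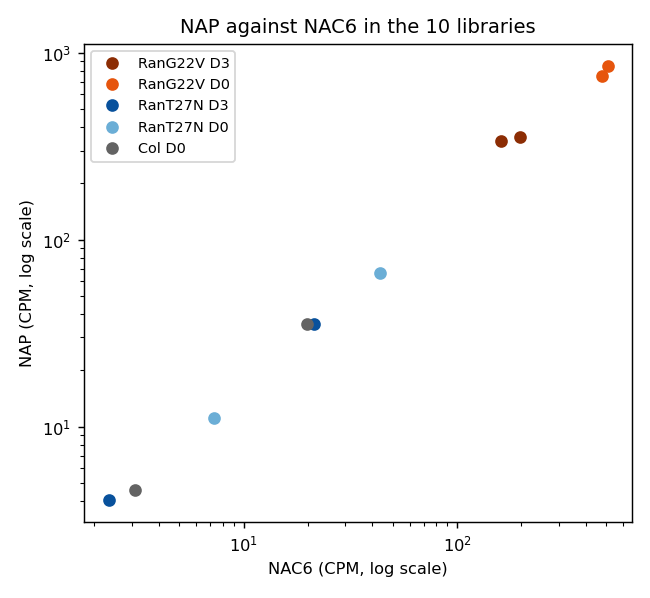
NAP against NAC6 in CPM, both on log axes, 1 point per library and coloured by labelled group. The 10 points lie along a line, from 2.35 CPM of NAC6 and 4.03 of NAP to 506 and 853 CPM.

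NAC6 and NAP differed widely between the replicates of the 3 groups where they were low. Replicate 2 was 9.15 times replicate 1 for NAC6 in RanT27N D3, 5.97 times in RanT27N D0 and 6.38 times in Col D0, but 1.23 times in RanG22V D3 and 1.06 times in RanG22V D0. For NAP the same ratios were 8.75, 5.94 and 7.74, then 1.05 and 1.14. Of the 18 tested upstream regulators, 7 were higher in replicate 2, by any amount, in all 3 groups. MYC2 was so in none, and the other 10 in 1 or 2 of them. PHYA, 1 of the 7, was at only 20.2 and 22 CPM in replicates 1 and 2 of RanT27N D0. The share of such genes among all tested was not counted. CCA1, a clock gene, is one of the 10, at 2.77 and 13.7 CPM in replicates 1 and 2 of RanT27N D0 but 12.3 and 0.783 in Col D0. The 3 genes that follow were picked for their wide gap, after their values were seen. GI, also a clock gene, was at 1.02 and 75.5 CPM in replicates 1 and 2 of RanT27N D3, 0.0462 and 22.9 in RanT27N D0 and 0 and 66.6 in Col D0. PIF4, a light-signalling factor known to act on ORE1, was at 2.41 and 47.1, 1.02 and 19.1, and 2.25 and 28.5 CPM in the same libraries. LHCB3, an antenna protein gene of photosystem II, was at 132 and 1128, 57.8 and 918, and 10.3 and 1153 CPM. In RanG22V D3 and RanG22V D0 these genes differed less, with GI at 8.25 and 15.7 and at 5.34 and 2.35 CPM. The part of this gap in the NAC6 and NAP results was not tested. Within replicate 1, NAC6 was at 160.4 and 478 CPM in RanG22V D3 and D0 and at 2.35 to 7.3 in the other 3 groups, and within replicate 2 at 197.5 and 506 against 19.8 to 43.6.

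**Figure D5:**
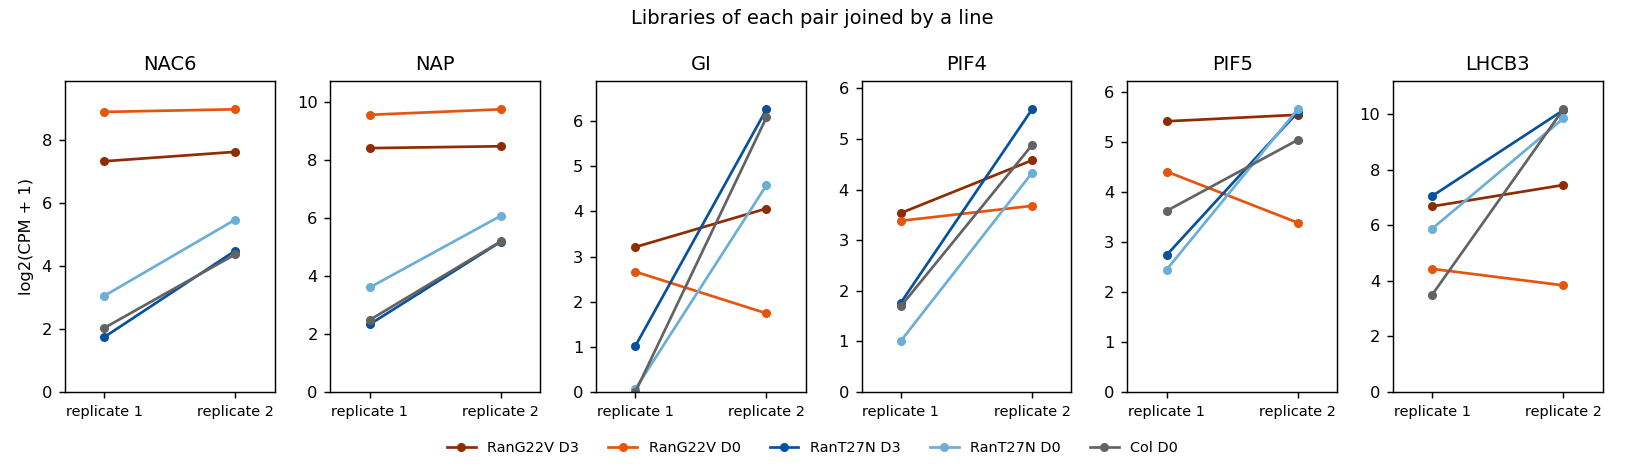
Replicates 1 and 2 of each labelled group joined by a line, as log2(CPM + 1), for NAC6, NAP, the clock gene GI, the light-signalling genes PIF4 and PIF5 and the antenna gene LHCB3, the last 4 picked after their values were seen. In RanT27N D3, RanT27N D0 and Col D0 replicate 2 is above replicate 1 for all 6 genes, as with GI at 75.5 against 1.02 CPM in RanT27N D3.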

How the data were processed

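The deposited files, 1 for each of the 10 libraries, list unscaled read counts by gene, made by the authors. Per the labels' protocols, total RNA was made into libraries with a Lexogen Quant-Seq kit, and the submitters' processing notes name Bowtie2, edgeR and TAIR10. The sources used here give no versions, no counting program, no strand setting and no exact kit, so levels are not corrected for length or compared between genes. Rows were paired with loci through RefSeq's TAIR10.1 annotation, 32577 of 33028 (98.6%), and 429 rows share their name with another. Sequences and positions come from TAIR10.1, and none were joined to coordinates of the deposited tables, which hold none.

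The counts went into edgeR 4.0.16 under R 4.3.3: filterByExpr left 21475 genes, libraries were scaled by TMM, a single model with 5 group means took in all 10 libraries (common biological coefficient of variation 45%), and the quasi-likelihood test was adjusted by Benjamini-Hochberg over all genes and called below 0.05. SE was taken from the log2 fold change and the F statistic. The fit was tested on simulated data in which every gene had the common coefficient of variation. Those of NAC6 and NAP were larger, 71.3% and 72.9%, so that test does not show how the fit works for them. CPM use TMM-scaled library sizes, and likeness uses log2 CPM with a prior count of 2. Alternatives were DESeq2 1.42.0, its size factors, other filters, only the libraries compared, a replicate block, and each library left out. Replicates were no copies of each other, since their counts differed beyond counting noise (31.15 to 229.5 chi-square units a gene). Groups follow sample titles. The labels do not pair samples beyond a replicate number, which the file headers write as a set number with no word on what a set shares, and 3 of 10 pairs of groups had deviations correlated over 0.1 (range -0.01 to 0.31), so the number was not taken as a pairing.

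The 6 members, the gene lists and the alternatives were chosen with earlier results of these data known. The genes named are the 6 members, the 4 genes most alike to each, up to 4 called genes of each list and comparison, readings of darkness and of Ran, and list members with a known direct tie to a member.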

Additional observations from a re-analysis of the deposited data

Results flagged for a closer look

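The day difference between the RanG22V pairs and that between the RanT27N pairs were compared by the interaction test in edgeR. They differed for 2 of the 6 genes at an unadjusted p below 0.05, and for 2714 of all 21475 tested. Neither of the 2 passed adjustment over all genes. For NAC019 the log2 difference of the differences was -2.67, with an adjusted p of 0.107, and both RanG22V D3 libraries were below both RanG22V D0 libraries while both RanT27N D3 libraries were above both RanT27N D0 libraries. For ATAF1 it was -2.01, with an adjusted p of 0.23, and the RanT27N pairs overlap. By the names inside the tables the same contrast, with its sign turned, is that of darkness between the lines. No group has 4 or more libraries, so single libraries were not screened for outliers.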

How the results depend on the processing

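Counts of the 6 genes called by edgeR moved with the tool and the samples fitted, and the cause was not tested. RanG22V D3 against RanG22V D0 had 1 call, and 2 with no filter on low counts, with a replicate block over all 10 libraries or with DESeq2, and 5 when fitted to the 4 libraries compared, with or without a replicate block (the block over these 4 was chosen after seeing the data). RanG22V D3 against RanT27N D3 had 0 calls, but 2 with no filter, with the replicate block or with DESeq2, and 3 when fitted to the libraries compared. RanT27N D3 against RanT27N D0 and the interaction each had 0 calls, and 1 with no filter or DESeq2. DESeq2's size factors and a minimum count of 50 changed no such count, and the replicate block changed no other. With each library left out in turn, counts ran from 0 to 2 in RanG22V D3 against RanG22V D0, 1 to 4 in RanG22V D0 against Col D0, 0 to 3 in RanG22V D0 against RanT27N D0 and 0 to 2 in RanG22V D3 against RanT27N D3, and stayed at 0 elsewhere. A lone library left in a group is assumed to vary like the others.

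Genes called over the whole table, on which the shares given beside the members rest, moved with single libraries left out, by more than 1.5 times in 43 of 70 cases. They ran from 0 to 180 in RanT27N D3 against RanT27N D0, 27 to 1464 in RanG22V D3 against RanG22V D0, 0 to 46 in RanT27N D0 against Col D0, 2384 to 4899 in RanG22V D0 against Col D0, 1641 to 4658 in RanG22V D0 against RanT27N D0, 486 to 3191 in RanG22V D3 against RanT27N D3 and 1 to 135 in the interaction. Other settings moved them by more than 1.5 times in these cases. With no filter, 563, 2107, 391, 3709 and 568 genes were called in RanT27N D3 against RanT27N D0 (main count 74), RanG22V D3 against RanG22V D0 (846), RanT27N D0 against Col D0 (53), RanG22V D3 against RanT27N D3 (2324) and the interaction (45), and with DESeq2 563, 2583, 402, 4146 and 719. Fitted to the libraries compared, the first 3 gave 0, 3607 and 0 and the interaction 109. Replicate blocks gave 83 for the interaction over 10 libraries, 4135 for RanG22V D3 against RanG22V D0 over its 4 libraries, and 44 and 27 for the RanT27N D3 and RanT27N D0 comparisons over the 6 libraries of the lower groups, a set chosen after seeing the data. A minimum count of 50 gave 35 in RanT27N D3 against RanT27N D0.

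No call of a member changed direction. Of values not called, these changed sign with single libraries left out, given as lowest and highest log2 fold change. In RanT27N D3 against RanT27N D0 NAC6 ran from -3.39 to 0.7, NAP from -3.21 to 0.82 and ATAF1 from -0.02 to 1.31. In RanT27N D0 against Col D0 NAC6 ran from -0.64 to 2.99, NAP from -0.84 to 3.03, ATAF1 from -0.82 to 0.51 and NAC019 from -0.35 to 0.36. In the interaction NAC6 ran from -2.16 to 1.99, NAP from -2.03 to 2.05 and JUB1 from -0.38 to 1.1. JUB1 ran from -1.38 to 0.02 in RanG22V D3 against RanG22V D0, and from -0.84 to 0.61 in RanG22V D3 against RanT27N D3. In RanT27N D3 against Col D0 NAC6 ran from -2.22 to 1.9, NAP from -2.26 to 2.06 and JUB1 from -0.24 to 1.39, and NAC6 was at -0.02 and -0.08 with the replicate block over 10 and over 6 libraries. In RanG22V D3 against Col D0 NAC016 ran from -0.07 to 0.71, NAC019 from -0.19 to 0.59 and JUB1 from -0.49 to 1.42. In RanG22V D3 against RanT27N D0 ATAF1 ran from -1.19 to 0.14 and NAC019 from -0.26 to 0.6, and in the mean of the RanG22V against that of the RanT27N groups ATAF1 from -0.43 to 0.21 and JUB1 from -0.65 to 0.06. Of 84 calls of members and listed genes in the 7 main comparisons, 32 held with each library left out in turn, 52 were lost at least once and 0 turned sign. NAC016 and JUB1 had medians of 36 and 53 reads per library, against 744 for NAC6. Same-numbered libraries of RanT27N D3, RanT27N D0 and Col D0 deviated together (correlations 0.12, 0.19 and 0.31), and no group pair with a RanG22V group did (highest 0.07).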
